A study of Mus musculus with 12 samples.

Results

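The Eph receptors and their ephrin ligands, the netrins with their receptors Dcc, neogenin and Unc5, and the Slit ligands with their Robo receptors were followed in RNA from mouse brains at 14 d post-stroke. Members were the rows of the count table whose gene symbol belongs to one of these families and whose reads over all 12 mice summed to at least 20. All 40 matching rows met that minimum, of 49315 genes in the table, and fell into 9 EphA receptors, 5 EphB receptors, 5 ephrin-A ligands, 3 ephrin-B ligands, 3 netrins, 2 netrin-G ligands, *Dcc* and *Neo1*, 4 Unc5 receptors, 3 Slit ligands and 4 Robo receptors. *Ntn3* was not analysed here.

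The samples were the brains of 12 mice, 6 per group. For the sequenced RNA the paper names whole brains in its Results and whole hemispheres in its Discussion. Recipients were CD45.1 Pep Boy mice, 8 to 12 weeks old at transplantation, on a C57Bl6 background and male, and were irradiated with the head shielded. The Tet2-KO group received bone marrow (BM) with 10% CD45.2 cells lacking *Tet2* and 90% CD45.1 cells with intact *Tet2*, and the WT group received 10% CD45.2 cells with intact *Tet2* in the same mixture. All mice then underwent a 30 min occlusion of the right middle cerebral artery, performed 8 to 10 weeks after the transplant, so that both groups had a stroke and no sham brain entered the comparison. In this model the deletion is in a fraction of the blood-forming cells, while neurons, glia and vessels of the recipient keep *Tet2*. The treatment entry of the labels names control cells for all 12 mice. The grouping used here is that of the titles and genotype entries.

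These families steer growing axons and migrating cells. Eph receptors are tyrosine kinases that meet membrane-bound ephrins on a neighbouring cell, and signals can run into both cells. Netrins attract axons through Dcc and repel them through Unc5 receptors, whereas Slits repel through Robo receptors. In the adult brain many of the same genes are expressed in neurons, glia and vessels and take part in synapse structure, and several are known as influences on axon sprouting after injury.

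Total counts lay between 12000261 and 21049763 per mouse. Levels are given in CPM, read counts divided by the library size that edgeR's TMM method estimates, and a positive log2 fold change means a higher level in the Tet2-KO group. Of the 20290 genes tested with edgeR's quasi-likelihood test, 5 (0.0246%) had an adjusted p below 0.05. *Tet2* in these brain samples was between 126 and 147 CPM in WT mice and between 117 and 137 CPM in Tet2-KO mice (log2 fold change -0.01, edgeR adjusted p = 0.934). That level is set largely by recipient tissue and does not check the labels. The brain label was borne out by its markers: 12 neuron markers summed to between 4652 and 7757 CPM per mouse, 7 astrocyte markers to between 5412 and 6116 CPM and 8 oligodendrocyte markers to between 4568 and 6427 CPM. Some libraries stood apart. WT replicate 2 had the lowest neuron marker sum of all mice (4652 CPM, other WT mice 5901 or more) and the highest sum of 8 activated phagocyte markers (2295 CPM). Tet2-KO replicates 4 and 5 had the lowest neuron marker sums of their group (5942 and 6072 CPM), and replicate 5 had the highest phagocyte sum of its group (1414 CPM).

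No member passed the adjusted threshold in edgeR (39 tested, lowest adjusted p = 0.110), and in no member were all Tet2-KO mice outside the WT range, which 1.09% of all tested genes showed. *Efna4* was not tested because of its low counts. Below the threshold, the members were placed more often above than below WT. At an unadjusted p below 0.05, 12 of 39 members (30.8%) were higher with Tet2-KO BM cells, against 10.8% of all tested genes, and 1 member (2.56%) was lower, against 12.2% of all tested genes. The 12 were *Unc5d*, *Efna5*, *Robo2*, *Robo3*, *Ntng2*, *Epha5*, *Unc5c*, *Slit3*, *Unc5a*, *Ephb6*, *Efnb2* and *Efnb3*, and the one lower member was *Epha1*. The median log2 fold change was 0.11 over the 39 members and 0.01 over all tested genes, and 26 members (66.7%) lay above 0 and 13 below it, where 52.3% of all tested genes lay above 0. The shares are not matched for level: the median was 50.8 CPM over the members and 13.0 CPM over all tested genes. The median SE was 0.097 and 0.108, and the median absolute log2 fold change 0.127 and 0.122. The largest fold among the 12 was 1.25, for *Unc5d*. Without WT replicate 2, the number higher at an unadjusted p below 0.05 was 7, against 7.37% of all genes (*Epha5*, *Efna5*, *Ntng2*, *Unc5d*, *Slit3*, *Robo2* and *Robo3*), and the median log2 fold change of the members was 0.04. Among WT mice, replicate 2 was the lowest in 26 of the 39 members and the highest in 10. It was the lowest in all of the 12, which the choice of members lower in WT favours.

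**Figure D1:**
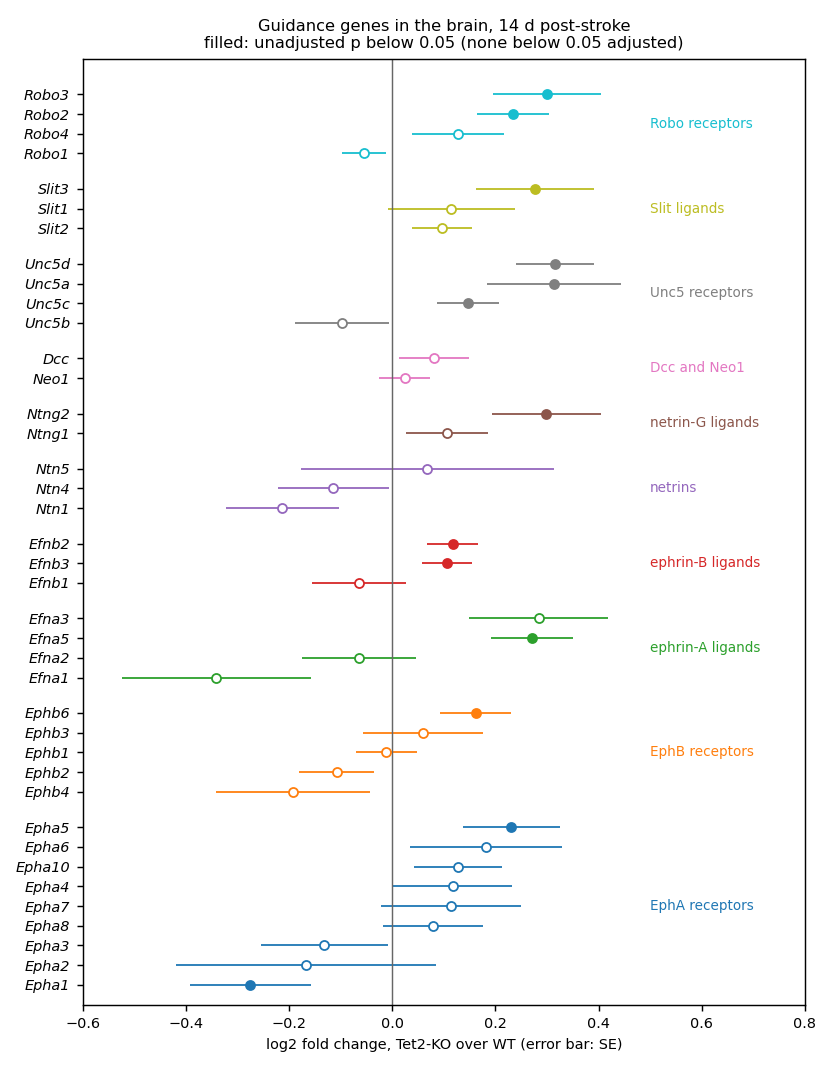
Log2 fold change of Tet2-KO over WT (x axis, error bar: SE from edgeR) for the 39 tested members, grouped by family. Filled points have an unadjusted p below 0.05; 12 of them lie to the right of 0 and 1, Epha1, to the left.

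Markers shared by neurons and those of cortical neurons leaned the same way as these members. Of the 12 neuron markers, 10 (83.3%) had a higher level at an unadjusted p below 0.05, against 10.8% of all tested genes. Their median log2 fold change was 0.20, none passed the adjusted threshold in edgeR, and 4 Tet2-KO mice were above all WT mice in their sum. The sum ranged from 4652 to 6370 CPM with a median of 6115 CPM in WT mice and from 5942 to 7757 CPM with a median of 7248 CPM in Tet2-KO mice. None of the neuron markers was at 0. Cortical neuron markers were higher in 5 of 8 (62.5%) at the same unadjusted threshold, with a median log2 fold change of 0.26. Striatal neuron markers were higher in 1 of 8 (12.5%), near the 10.8% of all tested genes, with a median of 0.10. Other regional lists were mixed. Of 7 thalamic neuron markers 1 (14.3%) was higher and 1 (*Prkcd*, log2 fold change -0.20) was lower, with a median of 0.04. Of 8 hypothalamic neuron markers 0 were higher and 1 (12.5%, *Pomc*, -0.59) was lower, with a median of 0.09. Single calls in these lists lie near the shares of all tested genes, 10.8% higher and 12.2% lower. Without WT replicate 2 the counts of higher markers were 7 of 12 for neurons and 4 of 8 for cortical neurons, where 7.37% of all genes were higher. These marker counts were lowest, at 6 and 3, without Tet2-KO replicate 1 and likewise without Tet2-KO replicate 3. When each member was expressed relative to the neuron marker sum of the same mouse, the difference of the group means on the log2 scale was above 0 in 7 members and below 0 in 32, with a median of -0.13. Among the 12 members named above, 6 were then above 0 and 6 below it, with a median of 0.02. Because the 12 were chosen for a higher level in Tet2-KO mice, the choice favours values above those of the other members. Their split and median therefore cannot show how much of the difference remains relative to the neuron marker sum. In whole-tissue RNA, fewer neurons and less RNA per neuron cannot be told apart.

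**Figure D2:**
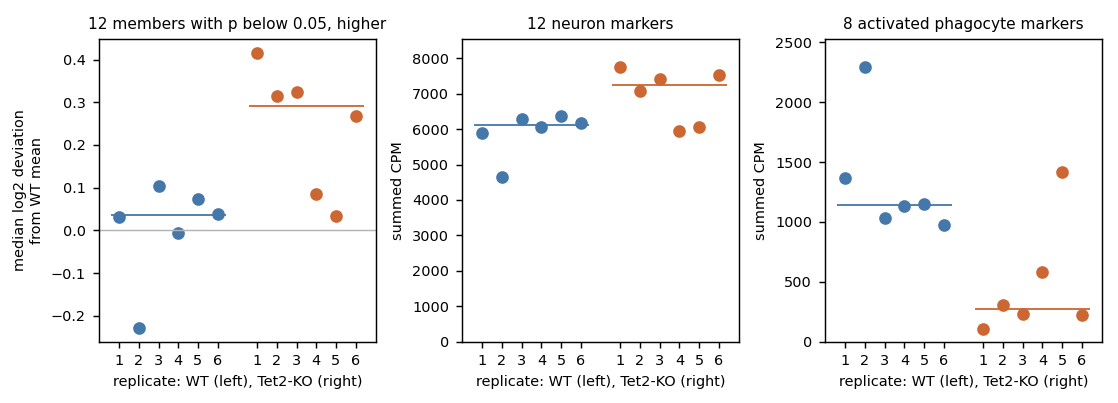
Each point is 1 mouse, WT in blue and Tet2-KO in orange, with replicates on the x axis and the group median as a line. Left, the median log2 deviation from the WT mean over the 12 members chosen for an unadjusted p below 0.05; centre and right, the summed CPM of 12 neuron and 8 activated phagocyte markers. WT replicate 2 is lowest and Tet2-KO replicates 4 and 5 are lowest of their group in the left and centre panels.

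Markers of several other cell types leaned the opposite way. All 8 activated phagocyte markers had a log2 fold change below 0, 6 of them at an unadjusted p below 0.05, and their sum ranged from 972.7 to 2295 CPM in WT mice and from 105 to 1414 CPM in Tet2-KO mice. All 7 fibroblast markers were lower at an unadjusted p below 0.05 (median log2 fold change -1.30), as were 5 of 8 reactive astrocyte markers (median -0.91) and 4 of 8 endothelial markers (median -0.27). Without WT replicate 2, the counts were 2 for activated phagocytes, 4 for fibroblasts and 3 each for reactive astrocytes and endothelial cells. All tested markers of neutrophils (2 of 7 listed), T cells (3 of 6) and B cells (2 of 5) were lower at the unadjusted threshold. The 2 neutrophil markers, *S100a8* and *S100a9*, also passed the adjusted threshold in edgeR (adjusted p = 0.0364 for each). The other listed genes of these 3 cell types had too few counts to be tested. Also lower at the unadjusted threshold were 2 of 6 choroid plexus (median -0.26), 2 of 6 oligodendrocyte precursor (median -0.12) and 1 of 7 mural cell markers (14.3%, median -0.18). Of homeostatic microglia markers 0 of 8 were lower at that threshold, but 7 lay below 0 (median -0.21). Of ependymal markers 0 of 4 were, but all 4 lay below 0 (median -0.27). Astrocyte and oligodendrocyte markers had medians of 0.02 and -0.01. Of the astrocyte markers, 1 of 7 (14.3%, near the share of all tested genes) was higher at the unadjusted threshold and 0 lower. All 6 tested cerebellar neuron markers had a log2 fold change above 0, with a median of 0.45, and 1 of them (16.7%, *Neurod1*) was higher at the unadjusted threshold. The listed cerebellar markers summed to between 33.0 and 46.2 CPM in WT mice. In Tet2-KO replicates 2 and 4 they summed to 79.3 and 104 CPM, against 37.0 to 40.9 CPM in the other Tet2-KO mice, which lay within the WT range. The part of these shifts in the levels of the guidance genes was not tested.

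Promoter sequences are shown for *Efna5* and *Robo2*, the members with the smallest p among those with an entry in RefSeq's table (build GRCm38.p6), because both had a higher level at an unadjusted p below 0.05. Each is the 250 bases before the transcription start that RefSeq lists, written 5′ to 3′ on the gene's strand, with GC boxes (GGGCGG on either strand, overlapping matches counted) in capitals. That of *Efna5* (chr17:62881318-62881567, minus strand) held 4 GC boxes, and that of *Robo2* (chr16:74411826-74412075, minus strand, the one of its 3 listed starts that equals the gene's start in the GENCODE M21 annotation) held 0.
Efna5: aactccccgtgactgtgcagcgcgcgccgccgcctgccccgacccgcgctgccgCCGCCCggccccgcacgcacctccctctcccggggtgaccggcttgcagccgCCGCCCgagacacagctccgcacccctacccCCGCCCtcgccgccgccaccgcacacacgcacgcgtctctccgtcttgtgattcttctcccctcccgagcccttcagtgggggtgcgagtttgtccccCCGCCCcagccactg
Robo2: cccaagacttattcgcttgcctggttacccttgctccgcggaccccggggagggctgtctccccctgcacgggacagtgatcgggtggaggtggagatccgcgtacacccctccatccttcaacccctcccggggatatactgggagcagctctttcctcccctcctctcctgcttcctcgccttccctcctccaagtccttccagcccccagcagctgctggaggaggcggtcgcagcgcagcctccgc
Of the 40 members, 35 had an entry and 24 of these held a GC box in at least 1 listed promoter, 7 of 10 among the members with a higher level at an unadjusted p below 0.05. Over entries, 27 of 40 member promoters (67.5%) held one, against 32.7% of all 32851 promoters in the table. The member promoters were also richer in G and C, with a median of 64.6% against 52.4%. A TATA box (TATAAA on either strand) was in 5.0% of member promoters and 12.4% of all, and an E box (CACGTG, which reads the same on both strands) in 5.0% and 6.02%. These counts describe letters in a fixed window and no binding was measured.

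Among the ligands, ephrins are bound to the membrane, the A class by a lipid anchor and the B class by a transmembrane segment. *Efna5* (ENSMUSG00000048915, chr17:62604184-62881317), an ephrin-A best known for ordering the map of retinal axons, had the smallest p of the ephrins. Its level was 19.1 CPM in the lowest, 21.6 CPM in the median and 24.9 CPM in the highest WT mouse, and 22.4, 26.0 and 29.9 CPM in the Tet2-KO mice. In 4 Tet2-KO mice the level was above every WT mouse, and the groups overlapped. The log2 fold change was 0.27 (SE 0.08, edgeR unadjusted p = 0.00391, adjusted p = 0.121), and it was 0.24 without WT replicate 2. *Efna3*, the ephrin-A with the highest level per kb of exon, was at 22.2, 31.8 and 33.8 CPM in WT mice and 28.6, 36.4 and 47.0 CPM in Tet2-KO mice (lowest, median, highest). Tet2-KO replicate 3 was highest, 4 Tet2-KO mice lay above all WT mice, and the log2 fold change of 0.28 (SE 0.14) had an unadjusted p of 0.0557. 14.1% of the exon bases of *Efna3* are shared with a gene on the opposite strand, and the strand used in counting is not given in the sources used here. *Efna1*, an ephrin also made by vessels, had a log2 fold change of -0.34 (unadjusted p = 0.0835), the lowest of all tested members, at a median of 4.00 CPM in WT mice and 3.27 CPM in Tet2-KO mice. *Efna2* was at -0.07, and *Efna4* had between 2 and 13 counts per mouse.

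*Efnb3*, the ephrin-B that stops axons of the corticospinal tract from recrossing the midline, had the highest level per kb of exon of all 40 members, at a mean of 32.6 CPM per kb. It was at 95.3, 99.1 and 109 CPM in WT mice and 96.8, 109.8 and 113 CPM in Tet2-KO mice (lowest, median, highest), and its groups overlapped over most of their range. Its log2 fold change was 0.11 (SE 0.05, unadjusted p = 0.0484). *Efnb2*, a ligand of EphB4 that marks arteries and is also made by neurons and glia, was at 50.4, 55.5 and 59.9 CPM in WT mice and 55.9, 60.0 and 65.6 CPM in Tet2-KO mice. Its log2 fold change was 0.12 (SE 0.05, unadjusted p = 0.0341), and 3 Tet2-KO mice lay above all WT mice. *Efnb1* was at -0.06.

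The EphA receptors spanned both directions. *Epha5* (ENSMUSG00000029245, chr5:84054761-84417382), a receptor of ephrin-A5 in forebrain neurons, was at 78.3, 111 and 121 CPM in WT mice and 110.2, 129.5 and 140 CPM in Tet2-KO mice (lowest, median, highest). WT replicate 2 was set apart from the others, which reached at least 109 CPM, and 4 Tet2-KO mice were above all WT mice. Its log2 fold change of 0.23 (SE 0.09, unadjusted p = 0.0277) was 0.15 without WT replicate 2. *Epha4*, the EphA receptor with the highest level per kb of exon (23.6 CPM per kb) and one that binds ephrins of both classes, was at 121, 188 and 208 CPM in WT mice and 160, 204 and 222 CPM in Tet2-KO mice. Here 1 Tet2-KO mouse exceeded all WT mice. The log2 fold change was 0.12 (SE 0.12, unadjusted p = 0.324), and 0.02 without WT replicate 2. *Epha1*, a receptor of epithelial and immune cells with little expression in brain, was the lower member at the unadjusted threshold. It was at 4.14, 4.45 and 4.96 CPM in WT mice and 3.04, 3.60 and 4.58 CPM in Tet2-KO mice, with 5 Tet2-KO mice below all WT mice. A log2 fold change of -0.28 (SE 0.12, unadjusted p = 0.0336) resulted, and it rests on between 43 and 89 counts per mouse, and 6.01% of its exon bases are shared with *Zyx* on the opposite strand. The other six EphA receptors lay between -0.17 (*Epha2*) and 0.18 (*Epha6*), none at an unadjusted p below 0.05.

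Of the EphB receptors, *Ephb6*, which lacks kinase activity, was at 58.7, 65.7 and 71.7 CPM in WT mice and 65.0, 72.5 and 82.4 CPM in Tet2-KO mice (lowest, median, highest). It had the highest level per kb of exon of this family. 3 Tet2-KO mice lay above all WT mice and the log2 fold change was 0.16 (SE 0.07, unadjusted p = 0.0326). *Ephb1*, *Ephb2*, *Ephb3* and *Ephb4* were between -0.19 (*Ephb4*, the vein receptor of ephrin-B2) and 0.06 (*Ephb3*). Over the Eph receptors and ephrins together 5 of 21 tested members (23.8%) were higher and 1 (4.76%) was lower at the unadjusted threshold. The shares of all tested genes were 10.8% and 12.2%. The median log2 fold change of the 21 was 0.08. Without WT replicate 2 the higher count was 2 of 21, where 7.37% of all genes were higher. It was also 2 without Tet2-KO replicate 2 or 3.

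The netrin ligands themselves were not among the higher members. *Ntn1*, the secreted netrin that draws axons to the midline and the one of the 3 with the highest level per kb of exon, was at 23.5, 26.8 and 33.6 CPM in WT mice and 18.1, 22.8 and 29.8 CPM in Tet2-KO mice (lowest, median, highest). In 4 Tet2-KO mice the level was under that of every WT mouse, and the log2 fold change of -0.21 (SE 0.11, unadjusted p = 0.0683) was -0.14 without WT replicate 2, the highest WT mouse. *Ntn4*, a netrin of basement membranes, was at -0.11, and *Ntn5*, with 18 to 65 counts per mouse, at 0.07. The netrin-G proteins are lipid-anchored relatives that do not bind Dcc and instead bind netrin-G ligand proteins across synapses. *Ntng2* (ENSMUSG00000035513, chr2:29194541-29253005) was at 36.4, 43.4 and 47.5 CPM in WT mice and 38.0, 53.2 and 65.2 CPM in Tet2-KO mice. Replicate 5 of the Tet2-KO mice lay below 5 of the WT mice, whereas 4 Tet2-KO mice were above all of them. For this gene the log2 fold change was 0.30 (SE 0.11, unadjusted p = 0.0136, edgeR adjusted p = 0.141). 13.99% of the exon bases of *Ntng2* are shared with a gene on the same strand. *Ntng1* was at 0.11.

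*Neo1*, the neogenin receptor that also binds repulsive guidance molecules, had a higher level per kb of exon than *Dcc* and was at 151.5, 156.5 and 167 CPM in WT mice and 146.5, 163 and 173 CPM in Tet2-KO mice (lowest, median, highest). The groups overlapped over nearly the whole range, with a log2 fold change of 0.02 (SE 0.05, unadjusted p = 0.635). *Dcc* was at 0.08 (unadjusted p = 0.255). Among the Unc5 receptors, which mediate repulsion, 3 of 4 (75.0%) were higher at the unadjusted threshold, against 10.8% of all tested genes. That count was 1, *Unc5d*, without WT replicate 2 and also 1 without Tet2-KO replicate 2. *Unc5d* (ENSMUSG00000063626, chr8:28646717-29219636), expressed in upper cortical layers and also a receptor of FLRT2, had the smallest p of all members. It was at 47.3, 55.5 and 60.0 CPM in WT mice and 55.9, 69.5 and 78.1 CPM in Tet2-KO mice. Every Tet2-KO mouse except replicate 5 was above every WT mouse. The log2 fold change was 0.32 (SE 0.08, edgeR unadjusted p = 0.000831, adjusted p = 0.110), and 0.28 without WT replicate 2.

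*Unc5a*, the Unc5 receptor with the highest level per kb of exon, was at 62.7, 92.0 and 95.2 CPM in WT mice and 88.1, 103 and 135 CPM in Tet2-KO mice (lowest, median, highest). Tet2-KO replicates 1, 2 and 3 were above all WT mice and the other three lay within the WT range, and the log2 fold change was 0.31 (SE 0.13, unadjusted p = 0.0319), or 0.24 (unadjusted p = 0.0639) without WT replicate 2. *Unc5c* was at 90.5, 109 and 118 CPM in WT mice and 108, 119 and 127 CPM in Tet2-KO mice, with 3 Tet2-KO mice above all WT mice. Its log2 fold change was 0.15 (SE 0.06, unadjusted p = 0.0281), or 0.10 (unadjusted p = 0.0590) without WT replicate 2. *Unc5b*, known from vessels, was at -0.10 (unadjusted p = 0.298). The netrin system had 4 of 11 members (36.4%) higher at the unadjusted threshold, against 10.8% of all tested genes. In it 0 were lower, against 12.2%, and the median log2 fold change was 0.08. Without WT replicate 2, 2 of the 11 were higher, against 7.37% of all genes. The higher count was also 2 without Tet2-KO replicate 2.

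All 3 Slit ligands, secreted repellents, had log2 fold changes above 0. *Slit3* (ENSMUSG00000056427, chr11:35121224-35708507) was at 46.5, 69.4 and 78.1 CPM in WT mice and 66.7, 82.0 and 93.3 CPM in Tet2-KO mice (lowest, median, highest). WT replicate 2 was far below the other WT mice, which began at 67.3 CPM, and 4 Tet2-KO mice were above all WT mice. The log2 fold change of 0.28 (SE 0.11, unadjusted p = 0.0306) was 0.19 without that mouse. *Slit1*, expressed mainly in the nervous system and the Slit with the highest level per kb of exon, was at 75.9, 128.5 and 134 CPM in WT mice and 108, 130.5 and 149.9 CPM in Tet2-KO mice. Its log2 fold change was 0.11 (SE 0.12, unadjusted p = 0.368), and 0.01 without WT replicate 2. *Slit2* was at 0.10 (unadjusted p = 0.115).

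Of the Robo receptors, *Robo2* (ENSMUSG00000052516, chr16:73891839-74411825), the family's highest per kb of exon, was at 104, 124 and 134 CPM in WT mice and 126.5, 152 and 156 CPM in Tet2-KO mice (lowest, median, highest). Tet2-KO replicates 1, 2, 3 and 6 were above every WT mouse, and replicates 4 and 5 lay within the WT range. *Robo2* had a log2 fold change of 0.23 (SE 0.07, edgeR unadjusted p = 0.00401, adjusted p = 0.121). *Robo3* (ENSMUSG00000032128, chr9:37415669-37433246), which lets commissural axons cross the midline, was at 17.4, 21.3 and 23.3 CPM in WT mice and 19.9, 26.2 and 31.9 CPM in Tet2-KO mice. The same 4 Tet2-KO mice were above all WT mice, and the log2 fold change was 0.30 (SE 0.11, edgeR unadjusted p = 0.0118, adjusted p = 0.137). *Robo1*, a close relative of *Robo2*, was at -0.06 (unadjusted p = 0.226), and *Robo4*, an endothelial receptor, at 0.13 (unadjusted p = 0.171). Slits and Robos together had 3 of 7 members (42.9%) higher at the unadjusted threshold and 0 lower, against 10.8% and 12.2% of all tested genes. The higher count was also 3 without WT replicate 2, where 7.37% of all genes were higher. It was 2 without Tet2-KO replicate 1, 2 or 3.

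**Figure D3:**
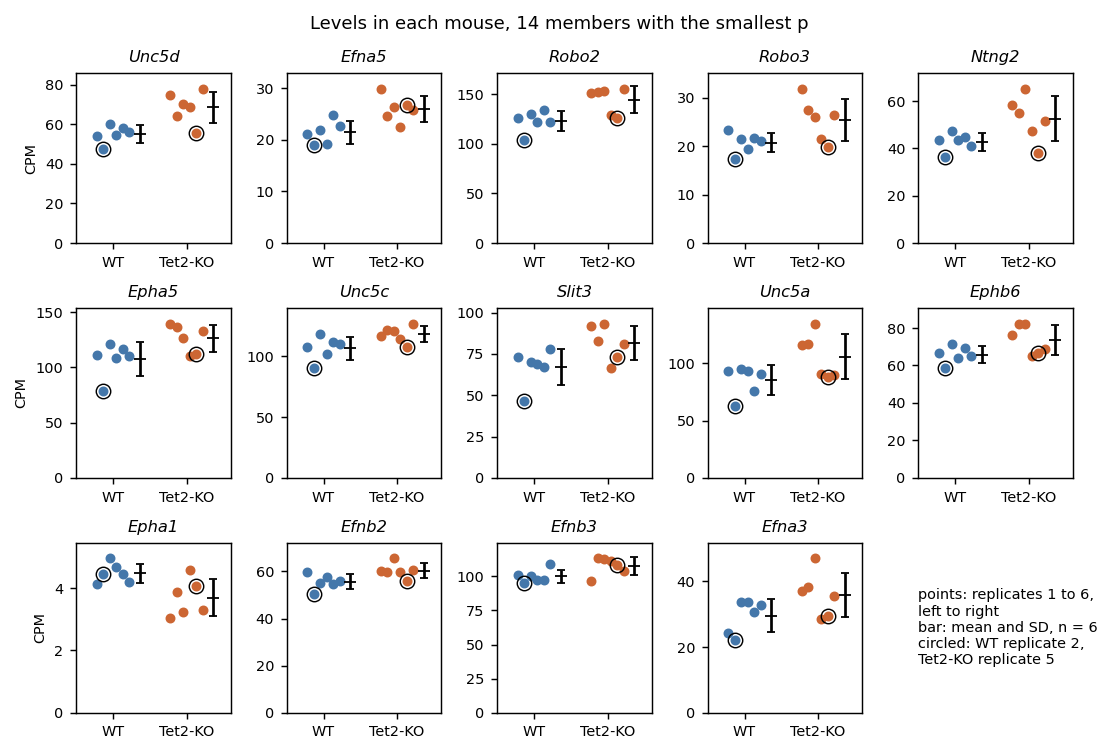
CPM (y axis, from 0) in each mouse for the 14 tested members with the smallest p, WT in blue and Tet2-KO in orange, replicates 1 to 6 from left to right, with the group mean and SD (n = 6). WT replicate 2 and Tet2-KO replicate 5 are circled; in no panel do the groups separate fully.

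The levels per kb of exon set the members apart by over an order of magnitude, whereas the groups differed little. *Efnb3*, *Epha4*, *Unc5a* (22.9 CPM per kb), *Slit1* (21.2 CPM per kb), *Ephb6* (18.5 CPM per kb) and *Neo1* (18.2 CPM per kb) led, and *Epha1* (1.04 CPM per kb), *Epha2* (0.856 CPM per kb) and *Efna4* (0.329 CPM per kb) were last, as means over the 12 mice. By role, 5 of 15 tested ligands (33.3%) and 7 of 24 receptors (29.2%) were higher at the unadjusted threshold, against 10.8% of all tested genes. The medians of ligands and receptors were 0.11 and 0.10 on the log2 scale.

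**Figure D4:**
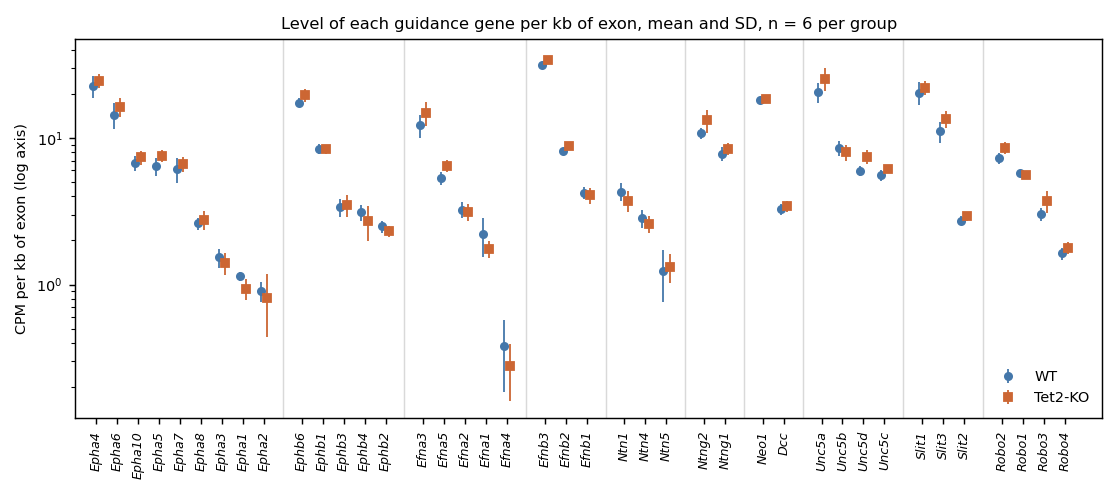
CPM per kb of exon (log axis) of all 40 members by family, mean and SD over 6 mice per group, WT as blue circles and Tet2-KO as orange squares. Efnb3 is highest at 32.6 CPM per kb over all mice and Efna4 lowest at 0.329.

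Across mice, the members with a higher level shared a similar order. The 2 lowest Tet2-KO mice were replicates 4 and 5 in 8 of the 12, and WT replicate 2 was the lowest WT mouse in all 12. The median deviation of these 12 from the WT mean, on the log2 scale, was 0.42, 0.32, 0.33 and 0.27 in Tet2-KO replicates 1, 2, 3 and 6, and 0.09 and 0.03 in replicates 4 and 5. In WT replicate 2 it was -0.23, and in the other WT mice between -0.005 and 0.103. These 12 were chosen by the difference between the groups, so the order of the groups is fixed by the choice. Over all 39 members the median deviation was between 0.01 and 0.20 in Tet2-KO mice, -0.20 in WT replicate 2 and between 0.01 and 0.06 in the other WT mice. Some other fits made more calls. With limma-voom and quality weights, 5 members (*Unc5d*, *Robo2*, *Ntng2*, *Efna5* and *Robo3*) had an adjusted p below 0.05 and were higher, 12.8% of the members against 2.91% of all genes. Without Tet2-KO replicate 5, edgeR called 4 members (*Unc5d*, *Ntng2*, *Robo2* and *Robo3*) higher, 10.3% against 3.7% of all genes. That mouse was lowest or second lowest of its group in 10 of the 12 higher members, so leaving it out favours such calls. Leaving out Tet2-KO replicate 1, 2, 3, 4 or 6, or WT replicate 1, 3 or 4, left 0 genes of any kind past the adjusted threshold in edgeR. The DESeq2 Wald test called *Unc5d* alone (adjusted p = 0.0183), 2.56% of the members against 0.922% of all genes. In none of these fits was a member called lower.

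**Figure D5:**
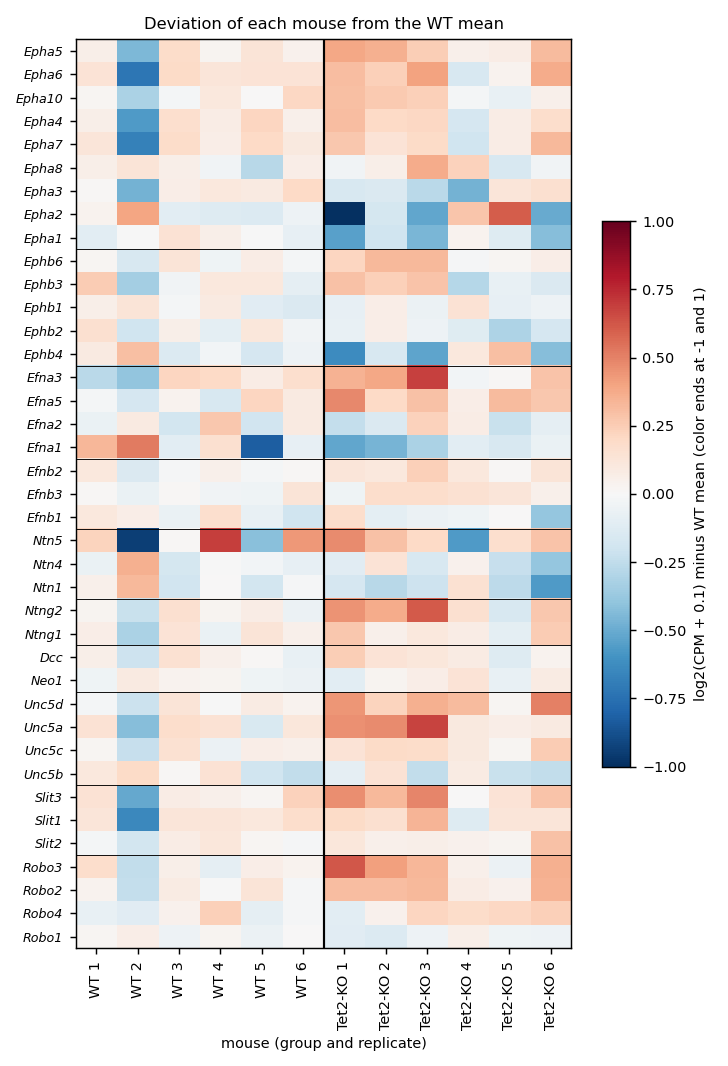
Deviation of each of the 39 tested members from its WT mean, as log2(CPM + 0.1), in every mouse (columns), with families separated by lines; red is above and blue below the WT mean, and the color scale ends at -1 and 1. WT replicate 2 is blue in many EphA, Slit and Unc5 rows, and Tet2-KO replicates 1, 2, 3 and 6 are red in the Unc5a, Unc5c, Unc5d, Slit3, Robo2 and Robo3 rows. Tet2-KO replicate 4 is also above the WT mean in these rows, and for Unc5d (0.320) it exceeds replicate 2 (0.221).

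Partners and signalling proteins of the same receptors were read from lists of 12 extracellular partners and 25 signalling genes. Of the extracellular partners, 5 of 12 (41.7%) were higher and 1 (8.33%) was lower at an unadjusted p below 0.05, against 10.8% and 12.2% of all tested genes, with a median log2 fold change of 0.12. Without WT replicate 2, 2 were higher. *Dscam*, a coreceptor of netrin, was at 109 to 135 CPM in WT mice and 134 to 156 CPM in Tet2-KO mice (log2 fold change 0.19, unadjusted p = 0.00484). *Adgrl3*, a latrophilin that binds FLRT proteins and Unc5 receptors, was at 204 to 253 CPM in WT mice and 245 to 306 CPM in Tet2-KO mice (0.20 on the log2 scale, unadjusted p = 0.00536). In both genes 5 Tet2-KO mice lay above all WT mice. *Draxin*, a secreted antagonist that binds Dcc, was the lower partner, at 1.59 to 5.09 CPM in WT mice and 0.583 to 2.27 CPM in Tet2-KO mice, a log2 fold change of -1.30 (SE 0.37, unadjusted p = 0.00379).

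Of the 25 signalling genes, 8 (32.0%) were higher and 4 (16.0%) lower at an unadjusted p below 0.05, beside the same 10.8% and 12.2% of all tested genes. Their median log2 fold change was 0.08, the count of higher genes ranged from 5 to 10 with each mouse left out, and none passed the adjusted threshold in edgeR. *Ablim1*, an actin-binding protein tied to netrin signals, was at 140 to 156 CPM in WT mice and 156 to 178 CPM in Tet2-KO mice (0.17 on the log2 scale, unadjusted p = 0.00277). *Pak1*, a kinase downstream of Rac, was at 240 to 293 CPM and 279 to 350 CPM (0.22, unadjusted p = 0.00395). *Src*, a kinase that acts downstream of Eph and Dcc receptors, was at 97.2 to 115 CPM and 114 to 130 CPM (0.16, unadjusted p = 0.00994), and *Tiam1*, a Rac activator that binds Eph receptors, at 94.3 to 147 CPM and 142 to 199.6 CPM (0.31, unadjusted p = 0.0117). *Vav2*, an exchange factor of Eph signalling that blood cells also express, was lower, at 31.2 to 46.3 CPM in WT mice and 17.5 to 35.6 CPM in Tet2-KO mice (-0.51, SE 0.17, unadjusted p = 0.00913).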

How the data were processed

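RNA from the brains of 12 mice (6 per group) was rRNA-depleted and sequenced as paired reads. The authors trimmed reads with Trimmomatic 0.36, aligned them to mm10 with STAR 2.5.2b and counted uniquely mapped exonic reads with featureCounts of Subread 1.5.2, per the labels and methods, and deposited raw counts per gene for 49315 genes. The annotation release and strand setting are not given in the sources used here. Symbols (48970 genes), coordinates and exon lengths were taken from GENCODE M21.

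Counts were filtered with filterByExpr, scaled with TMM and tested with the robust quasi-likelihood F test of edgeR 4.0.16 in R 4.3.3 (no covariates, Benjamini-Hochberg adjustment over 20290 genes, threshold 0.05). SEs were derived from the fitted effect and its F statistic. Deviations per mouse used log2(CPM + 0.1). Alternatives were DESeq2 1.42.0 (Wald test and size factors), limma 3.58.1 (voom with quality weights), upper quartile scaling, other filters, a replicate block and each library left out.

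The members, the 20 lists of markers (neuron, cortical, striatal, thalamic, hypothalamic and cerebellar neuron, astrocyte, reactive astrocyte, oligodendrocyte, endothelial cell, mural cell, fibroblast, activated phagocyte, homeostatic microglia, neutrophil, T cell, B cell, oligodendrocyte precursor, choroid plexus, ependymal cell) and the partner and signalling lists were chosen with earlier results of these data known. Values over the mice are given for the 14 tested members with the smallest p, any member without overlap of the groups, the member with the highest level per kb in each family and up to 8 list genes with the smallest p. Within a group, libraries differed by more than sampling noise (chi-square per degree of freedom 2.00 to 27.5), and each, from 1 mouse, was counted as 1 sample. Of the members, 11 share exon bases with another gene, 4 of them over 10% of their exon length. Intervals are not given, and all errors are spreads between mice or model SEs.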

Additional observations from a re-analysis of the deposited data

Results flagged for a closer look

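In 11 of the 78 groups of 6 mice examined (39 members in each group), 1 mouse lay apart from the others by a gap, as a share of the whole range, above Dixon's 95% critical value. Chance flags about 1 in 20 groups. In 9 of the 11, the mouse was WT replicate 2, and these values come from 1 library and are not independent. It was low in *Epha3* (9.47 CPM, other WT mice 13.2 to 15.2), *Epha4* (121 CPM, others 186 to 208), *Epha5* (78.3 CPM, others 109 to 121), *Epha6* (45.1 CPM, others 80.8 to 85.0), *Epha7* (37.2 CPM, others 62.3 to 68.5), *Slit1* (75.9 CPM, others 127 to 134) and *Slit3* (46.5 CPM, others 67.3 to 78.1). It was high in *Epha2* (5.52 CPM, others 3.79 to 4.29) and in *Ntn4* (13.4 CPM, others 9.26 to 10.4). The same mouse had the lowest neuron marker sum and the highest activated phagocyte sum (4652 and 2295 CPM), whose part in these levels was not tested. The other two were *Ntn5* in Tet2-KO replicate 4 (1.70 CPM, others 2.90 to 3.59) and *Slit2* in Tet2-KO replicate 6 (84.8 CPM, others 70.5 to 75.1).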

How the results depend on the processing

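The count of genes past the adjusted threshold, 5 in edgeR, was 44 with no filter on low counts, 0 with at least 10 counts in every library, 898 with DESeq2, 2013 with limma-voom, 0 with the replicate block, and between 0 and 2257 with each mouse left out, the highest without Tet2-KO replicate 5. The count of members higher at an unadjusted p below 0.05 was 12 and ranged from 6 (without Tet2-KO replicate 2) to 12 with each mouse left out. Leaving out WT replicate 2 gave 7, as did leaving out replicate 3 of the Tet2-KO mice. Of the 13 members below that threshold in either direction, 5 kept an unadjusted p below 0.05 in all 12 such fits (*Unc5d*, *Efna5*, *Robo2*, *Robo3* and *Ntng2*). The count of lower members, 1, was 0 with upper quartile scaling and with DESeq2, 2 with limma-voom and between 0 and 3 with each mouse left out. The median log2 fold change of the members, 0.11, was between 0.04 and 0.12 with each mouse left out, 0.07 with limma-voom, 0.14 with upper quartile scaling (all genes 0.04) and -0.131 relative to the neuron marker sum, an alternative chosen after seeing the data. The sign reversed near 0 for *Ephb1* (-0.0125, but 0.0217 with upper quartile scaling and 0.0119 with limma-voom, -0.0489 to 0.014 with a mouse left out), *Ntn5* (0.0683, but -0.0056 with limma-voom, -0.0805 to 0.2417 with a mouse left out), *Ephb3* (-0.0031 to 0.1195 with a mouse left out) and *Neo1* (-0.003 to 0.0493). The cause of these differences between fits was not tested.

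Replicate numbers are shared between the groups, but same-numbered mice did not deviate together (correlations -0.17 to 0.23). Among WT mice, only replicate 6 correlated best with the Tet2-KO mouse of its own number. With the replicate block, 10 members were higher and 1 was lower at an unadjusted p below 0.05, and the median log2 fold change of all tested members was 0.106. Depth limits *Efna4* (at most 13 counts), *Ntn5* and *Epha1*. Single stroke brains at one time point, without sham mice, give no baseline for these levels.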
